A study of Arabidopsis thaliana with 21 samples.

Results

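Root tips of Arabidopsis thaliana Col-0, the wild-type accession, were given IAA or PEO-IAA for 20 min, and the genes whose transcript level differed between these treatments were sorted by where the untreated level lay. IAA (3-indoleacetic acid) is the main natural auxin and was used at 10 nM. PEO-IAA is IAA with a phenyl-oxoethyl group on its side chain, acts as an auxin antagonist, and was used at 10 µM, a dose 1000 times higher. Compound and dose therefore cannot be told apart in any difference between the treatments. The 3 IAA and 3 PEO-IAA libraries were compared with each other, and the 3 mock libraries (ethanol, also 20 min) placed each gene between them. These 9 libraries belong to a series of 21 in 7 groups of 3. The other 12 libraries came from plants that carry an inducible AXR3-1 transgene in Col-0 and from their Col-0 controls. The first pair, XVE>>AXR3-1 and Col-0, received estradiol at 5 µM during 2 h. The second pair, HS::AXR3-1 and Col-0, spent 40 min at 37 °C and then recovered during 80 min. Estradiol drives the first transgene under the g1090 promoter, as a fusion to a red fluorescent protein (RFP in the sample labels, mCherry in the design text). A heat shock promoter drives the second, and each construct is represented by 1 named line. Every library was made from 50 tips of 1 to 2 mm, cut from plants 5 days old.

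Auxin is perceived by TIR1/AFB F-box proteins, which hold an Aux/IAA repressor as co-receptor when auxin is bound. The Aux/IAA protein is then ubiquitinated and degraded, and ARF transcription factors that it held in check can act on their target genes. Several targets dampen the response again, among them the Aux/IAA genes themselves and the GH3 genes, whose enzymes join IAA to amino acids. PEO-IAA occupies the auxin site of TIR1 without letting the Aux/IAA protein dock. AXR3-1 is a stabilised form of the Aux/IAA protein IAA17, made from a mutant AXR3 gene. In the root tip auxin is known for patterning the stem cell niche, slowing elongation and priming lateral roots.

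Of 27586 loci in the files, 19809 passed the filter on low counts, and 341 of these (1.72%) differed between IAA and PEO-IAA at an adjusted p under 0.05 (edgeR quasi-likelihood test with the replicate number as a block, Benjamini-Hochberg adjustment over all genes tested). With IAA 234 genes were higher (1.18% of those tested) and 107 were lower (0.54%), 116 and 28 of them by at least 2-fold. All 341 differences had the same sign in each of the 3 same-numbered pairs of libraries. The calls were made from these pairs, so the equal signs add no support, and the share among all genes was not counted. The libraries of the groups did not overlap for 213 of the higher genes and 92 of the lower ones, as for 8.96% of all genes tested. The median log2 difference of all genes was -0.003. The called genes nearest to the threshold were AT2G46600, AT5G54130 and AT3G54150 (adjusted p = 0.0496 for each), and the nearest ones outside it were CIPK18, AT4G09100 and AT5G65850 (adjusted p = 0.0503, 0.0504 and 0.0507). Levels are given in CPM (counts per M, that is, estimated counts over the TMM-scaled library size), in the order of replicates 1, 2 and 3, and each difference is on the log2 scale with its standard error (SE). In these bulk samples fewer cells of a type and less RNA per cell cannot be told apart.

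Libraries held 17.45 to 23.88 M estimated reads. Markers of the root tip were present in all 9 libraries: the summed level of 24 cell division genes ran from 665.7 to 730.7 CPM and that of 4 root cap genes from 80.38 to 121.4 CPM over the 9 libraries. Of 12 xylem, 9 phloem, 11 endodermis, 23 root hair, 9 non-hair epidermis, 11 stem cell niche and 8 green tissue markers tested, 0 were called between IAA and PEO-IAA in edgeR (at an unadjusted p under 0.05, 2 root hair, 2 non-hair epidermis and 1 endodermis gene, and in DESeq2 1 root hair gene). Of the cell division and root cap genes 0 were called (1 cell division gene at an unadjusted p under 0.05, 0 in DESeq2). Most root hair and endodermis genes were nevertheless slightly lower with IAA, with 4 of 23 and 2 of 11 above 0 (medians -0.16 and -0.12). Medians of the other marker lists lay between -0.07 and -0.01. These shifts were not tested, and the share of all genes at an unadjusted p under 0.05 was not counted. The xylem markers summed to 166.8, 166.5 and 153.5 CPM in replicate 1 of IAA, PEO-IAA and mock and to 373.4 to 484.5 CPM in replicates 2 and 3, so replicate 1 was low in every group. A pair of libraries stood apart in touch, wounding and jasmonate genes. In PEO-IAA replicate 1 the stress regulator gene ZAT12 stood at 103 CPM and MYC2, a jasmonate transcription factor gene, at 211 CPM, above 17.7 to 34.8 and 65.4 to 140.2 CPM in the 8 other libraries. In IAA replicate 3 the jasmonate repressor gene JAZ10 stood at 35.6 CPM, above 3.45 to 16.6 in the others. The 23 touch, wounding and jasmonate genes tested summed to 1131, 1019 and 1571 CPM with IAA, 1227, 732.3 and 705.1 CPM with PEO-IAA and 569.3, 741.6 and 627.7 CPM with mock. Without PEO-IAA replicate 1 the calls numbered 135 higher and 29 lower, and without IAA replicate 3 they numbered 97 and 21.

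Each called gene was placed by the level of mock on the log2 scale between the fitted PEO-IAA level (position 0) and the fitted IAA level (position 1). Mock counted as near PEO-IAA or near IAA within 0.25 of that treatment's position, as between from 0.25 to 0.75, and as beyond PEO-IAA below -0.25. Of the 234 genes higher with IAA, mock was between for 124 (53%), near PEO-IAA for 93 (39.7%), near IAA for 9 and beyond PEO-IAA for 8. Of the 107 lower genes the counts were 64 (59.8%), 36 (33.6%), 5 and 2. Mock lay beyond IAA for 0 genes. The median SE of a position was 0.159 for higher and 0.176 for lower genes, and the whole interval of 1 SE on either side stayed inside the class for 98 of 234 and 31 of 107 genes, so many single genes are not firmly placed. Which class was larger among the higher genes depended on the borders: with equally spaced borders 124 were near PEO-IAA and 89 between, and with positions on mean CPM 143 and 85. Calls kept whichever of the 9 libraries was left out numbered 52 of the 124, 19 of the 93, 2 of the 9 and 1 of the 8 higher genes, and 12 of the 64 and 4 of the 36 lower genes. The same 3 mock libraries set all positions.

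**Figure D1:**
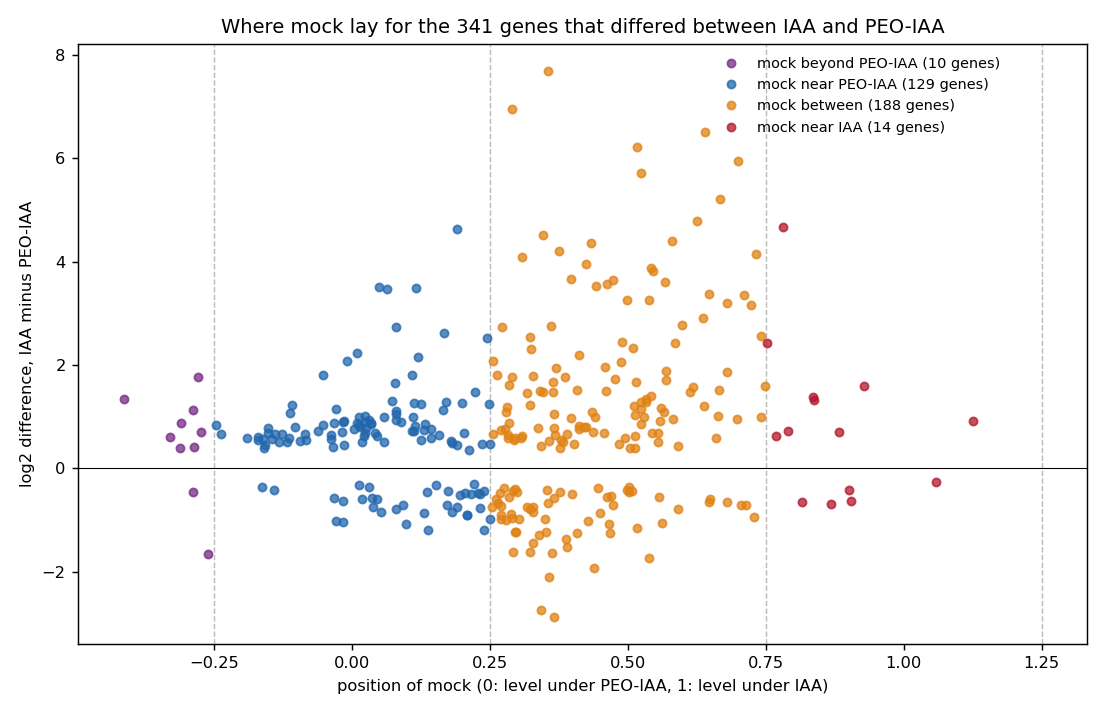
Position of mock (horizontal axis, 0 at the fitted PEO-IAA level and 1 at the fitted IAA level) against the log2 difference, IAA minus PEO-IAA (vertical axis), for the 341 genes that differed. Dashed lines are the class borders, 0.25 on either side of each treatment, and the largest differences lie among the 188 genes with mock between the treatments.

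For the 124 higher genes with mock between the treatments the median log2 difference was 1.475, 80 of them differed by at least 2-fold, and the libraries of IAA and PEO-IAA did not overlap for 112. Against mock itself 23 were called with IAA (in that comparison 0.671% of all genes were called and 0.56% were higher), 9 with PEO-IAA (0.0555%) and 7 with both. Both of these comparisons use the same mock libraries. Each also reuses the IAA or PEO-IAA libraries from which the genes were called. In this class and the others, a share above that of all genes therefore follows in part from the selection and is no separate support.

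All 9 called members of the Aux/IAA list, 9 higher and 0 lower of 26 tested, belonged to this class (list median 0.73). IAA2 (AT3G23030) held 206, 227 and 229.7 CPM with IAA, 17.6, 30.2 and 25.4 CPM with PEO-IAA and 106, 104 and 114 CPM with mock. Its 3 groups did not overlap, with mock in the middle (log2 difference 3.196, SE 0.16, adjusted p = 2.85e-06, mock position 0.68, SE 0.04). IAA1 (AT4G14560) held 79.3, 83.7 and 84.5 CPM with IAA, 2.82, 3.49 and 2.64 CPM with PEO-IAA and 27, 23.7 and 21.1 CPM with mock. The groups were again fully apart (log2 difference 4.79, SE 0.33, adjusted p = 1.81e-05), and the differences were 1.79 (SE 0.28, adjusted p = 0.0124) for IAA minus mock and -2.998 (SE 0.33, adjusted p = 0.00626) for PEO-IAA minus mock. IAA19 (AT3G15540), known for its part in hypocotyl tropism and stamen filament growth, held 32.9, 50.4 and 47 CPM with IAA, 3.61, 8.38 and 8.07 CPM with PEO-IAA and 9.59, 13.6 and 15.6 CPM with mock (log2 difference 2.75, SE 0.22, adjusted p = 6.52e-05). IAA4 was higher with IAA by 1.66 (adjusted p = 6.52e-05), IAA11 by 1.95 (adjusted p = 0.00042), IAA13 by 1.49 (adjusted p = 0.00131), IAA6 by 3.82 (adjusted p = 0.00258) and IAA30 by 1.74 (adjusted p = 0.0415). IAA5 (AT1G15580) was detected almost only with IAA, at 7.77, 8.17 and 10.5 CPM with IAA, 0.099, 0 and 0.105 CPM with PEO-IAA and 0.0484, 0.459 and 0.379 CPM with mock. The counts summed to 569 with IAA, 4 with PEO-IAA and 17 with mock, a ratio of 136 between the first and second (95% exact interval 52.9 to 501.4, counting error only). Among the members that did not pass were IAA7 at 106, 105 and 103 CPM with IAA, 101, 104 and 108 CPM with PEO-IAA and 103, 97.3 and 112 CPM with mock and IAA28 at a log2 difference of -0.21 (adjusted p = 0.63). Of the 26 members tested 24 lay above 0, and DESeq2 called 11. The log2 differences ran from -0.21 to 6.95, so the members differed widely in size of change.

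Promoter windows of 4 genes of this class are shown, those with the smallest p whose window holds TGTCTC, the core of the auxin response element that ARF proteins bind, and overlaps no other gene. Each is the 250 bases before the annotated gene start, read from RefSeq assembly TAIR10.1, 5′ to 3′ on the gene's strand. Capitals mark TGTCTC and its variant TGTCGG, also TTGACC or TTGACT (the W box core bound by WRKY factors) and CACGTG (the G box), on either strand.
IAA1 (chr4:8360746-8360995, plus strand): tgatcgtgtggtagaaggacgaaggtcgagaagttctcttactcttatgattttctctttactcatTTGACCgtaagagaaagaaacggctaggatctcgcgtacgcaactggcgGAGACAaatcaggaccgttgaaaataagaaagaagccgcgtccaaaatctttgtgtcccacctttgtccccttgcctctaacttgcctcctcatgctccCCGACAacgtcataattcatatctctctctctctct
IAA19 (chr3:5263751-5264000, plus strand): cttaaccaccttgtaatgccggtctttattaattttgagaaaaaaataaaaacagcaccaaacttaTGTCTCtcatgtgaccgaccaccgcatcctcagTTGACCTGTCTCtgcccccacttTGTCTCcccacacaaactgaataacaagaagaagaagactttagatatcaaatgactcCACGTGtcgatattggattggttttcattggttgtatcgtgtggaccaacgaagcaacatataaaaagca
AUF1 (chr1:29387422-29387671, plus strand): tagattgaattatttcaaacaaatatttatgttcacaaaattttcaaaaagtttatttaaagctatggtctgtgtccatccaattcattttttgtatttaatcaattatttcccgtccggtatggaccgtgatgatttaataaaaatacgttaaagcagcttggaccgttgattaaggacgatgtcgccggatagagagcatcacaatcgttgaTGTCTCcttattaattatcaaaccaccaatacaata
ACS11 (chr4:4886712-4886961, plus strand): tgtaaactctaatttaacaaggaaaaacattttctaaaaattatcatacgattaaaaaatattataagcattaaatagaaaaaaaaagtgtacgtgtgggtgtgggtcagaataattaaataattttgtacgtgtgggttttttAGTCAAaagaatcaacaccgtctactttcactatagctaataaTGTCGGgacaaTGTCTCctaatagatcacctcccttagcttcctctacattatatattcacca
The IAA19 window holds TGTCTC at 3 places, 184, 145 and 128 bases before the gene start, and the middle one directly follows a TTGACC. In IAA1 the core lies on the other strand (GAGACA as printed), 135 bases before the start. In AUF1 it lies 36 bases and in ACS11 52 bases before it. Among 19744 windows of genes tested, 10.6% held TGTCTC on either strand. The share was 21% of the 124 higher genes with mock between, 7.53% of the 93 with mock near PEO-IAA, and 5.61% of the 107 lower genes. These are shares of letters in a window, and they were not tested.

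Of 8 auxin inactivation genes tested 4 were higher with IAA and 0 lower (median 2.02), all of them GH3 enzymes. GH3.1 (AT2G14960) held 25.3, 30.6 and 30.5 CPM with IAA, 0.99, 2.08 and 1.85 CPM with PEO-IAA and 2.32, 6.32 and 6.5 CPM with mock. The 3 groups did not overlap, and the IAA libraries stood far above the rest (log2 difference 4.19, SE 0.25, adjusted p = 3.72e-06). GH3.2 (AT4G37390) held 44.5, 176 and 123 CPM with IAA, 0.148, 3.58 and 3.11 CPM with PEO-IAA and 8.13, 21.5 and 19.8 CPM with mock. Replicate 1 was the lowest in each group, and the groups did not overlap (log2 difference 5.72, SE 0.55, adjusted p = 0.000201). GH3.5 was higher by 2.31 (adjusted p = 0.000313), while GH3.6, with 18.7, 42.8 and 26.2 CPM with IAA, 4.5, 13.9 and 8.96 CPM with PEO-IAA and 7.17, 16.1 and 14.5 CPM with mock, missed the threshold (log2 difference 1.73, SE 0.39, adjusted p = 0.0516). AUF1 (AT1G78100), an auxin-induced F-box gene, held 151, 241 and 197 CPM with IAA, 11.8, 16.9 and 19.7 CPM with PEO-IAA and 62.8, 70.7 and 62.2 CPM with mock (log2 difference 3.61, SE 0.25, adjusted p = 2.08e-05), and mock was apart from both treatments. ACS11 (AT4G08040), which codes for an enzyme of ethylene synthesis, held 22.3, 32.5 and 22.3 CPM with IAA, 3.07, 6.43 and 4.85 CPM with PEO-IAA and 10.4, 13.5 and 8.5 CPM with mock (log2 difference 2.44, SE 0.21, adjusted p = 0.000112), the 1 gene called of 8 ethylene synthesis genes tested. GA2OX8, a gibberellin 2-oxidase gene that inactivates gibberellins, held 3.59, 6.19 and 5.56 CPM with IAA, 0.247, 0.136 and 0.369 CPM with PEO-IAA and 0.775, 0.662 and 1.41 CPM with mock (log2 difference 4.36, SE 0.75, adjusted p = 0.00733), the 1 gene called of 13 gibberellin metabolism genes. Leaving out replicate 2 or 3 of PEO-IAA ended this call.

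Transcription factors of this class included 4 of 10 HD-ZIP II genes (all 10 above 0, median 0.93), which code for homeodomain repressors known from shade and auxin responses. HAT2 (AT5G47370) held 145, 111 and 137 CPM with IAA, 40.8, 28.9 and 31.7 CPM with PEO-IAA and 72.7, 58.3 and 57.2 CPM with mock. Here too the 3 groups were apart (log2 difference 1.96, SE 0.10, adjusted p = 2.85e-06), and the differences were 1.06 (SE 0.10, adjusted p = 0.000685) for IAA minus mock and -0.90 (SE 0.11, adjusted p = 0.00866) for PEO-IAA minus mock. HAT1 was higher by 1.15 (adjusted p = 0.00287), HAT22 by 1.89 (adjusted p = 0.0448) and HAT4 by 0.71 (adjusted p = 0.011), and the HAT4 libraries overlapped between IAA and PEO-IAA. The HAT22 call was lost whichever of the 9 libraries was left out, and the HAT4 call without replicate 2 or 3 of IAA or PEO-IAA. ARF19 (AT1G19220), an activating ARF of root auxin responses, was the 1 gene called of 15 ARF genes, with 74, 91.3 and 66.1 CPM with IAA, 18.8, 31.6 and 18.8 CPM with PEO-IAA and 33.7, 42.2 and 33 CPM with mock (log2 difference 1.77, SE 0.10, adjusted p = 3.72e-06). Of 9 lateral root genes 4 were higher, all with mock between (list median 1.85). GATA23 (AT5G26930), a marker of lateral root founder cells, held 9.66, 4.17 and 9.87 CPM with IAA, 0.099, 0.498 and 0.422 CPM with PEO-IAA and 2.61, 0.866 and 3.3 CPM with mock, with every mock library between the other groups (log2 difference 4.397, SE 0.65, adjusted p = 0.00302). LBD16, which acts in lateral root initiation, held 3.3, 10.5 and 8.62 CPM with IAA, 0.148, 1.31 and 0.633 CPM with PEO-IAA and 0.678, 2.6 and 2.71 CPM with mock (log2 difference 3.52, SE 0.47, adjusted p = 0.00205), and LBD29 held 2.77, 9.2 and 8.99 CPM with IAA, 0.0495, 1.04 and 0.369 CPM with PEO-IAA and 1.89, 2.14 and 1.35 CPM with mock (log2 difference 3.88, SE 0.51, adjusted p = 0.00162). For both, replicate 1 was lowest with IAA and with PEO-IAA. MAKR4, which codes for a membrane-associated regulator of lateral root formation, was higher by 3.16 (adjusted p = 0.00443).

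Some genes of auxin transport and its regulation were in the same class. Of 8 AGC kinase genes tested 2 were higher and 0 lower (median 0.27), PID in this class and WAG2 with mock near IAA. Of 17 auxin transport genes tested 2 were higher, PIN3 among them, and 0 lower (9 above 0, median 0.01). PID (AT2G34650), an AGC kinase that phosphorylates PIN efflux carriers, held 45.6, 32.5 and 33.2 CPM with IAA, 5.15, 2.31 and 1.79 CPM with PEO-IAA and 9.59, 6.88 and 7.69 CPM with mock (log2 difference 3.66, SE 0.45, adjusted p = 0.0018), and PBP1, which codes for a calcium-binding partner of PID, held 61.5, 56.4 and 61.8 CPM with IAA, 6.63, 4.71 and 1.48 CPM with PEO-IAA and 16.9, 15.5 and 7.63 CPM with mock (log2 difference 3.96, SE 0.58, adjusted p = 0.00557). PIN3, an efflux carrier gene of the root columella and vasculature, was higher by a small amount. It held 57.8, 68.4 and 66.5 CPM with IAA, 42, 44.8 and 41.8 CPM with PEO-IAA and 53.6, 55.2 and 58.9 CPM with mock (log2 difference 0.58, SE 0.09, adjusted p = 0.0045), with all IAA libraries above all PEO-IAA libraries. Its call was lost without PEO-IAA replicate 3. PIN2 and the influx carrier gene AUX1 were not called, at log2 differences of -0.10 (adjusted p = 0.841) and -0.24 (adjusted p = 0.491).

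SAUR genes are short genes, many of them auxin-induced, known from cell expansion. In the SAUR list, matched by symbol, 3 of 7 genes tested were higher and 0 lower (median 2.78), and DESeq2 called 1. The 7 and their median include SAUR21 (AT5G01830), which is not annotated as SAUR-like and was not called (log2 difference -0.11, adjusted p = 0.788). Of 40 genes tested that are annotated as SAUR-like, a group made after values were seen, 7 were higher and 4 lower with IAA (median 0.03). SAUR68 (AT1G29510) held 6.07, 3.41 and 6.53 CPM with IAA, 0, 0 and 0.264 CPM with PEO-IAA and 1.31, 1.63 and 1.52 CPM with mock, and its counts summed to 342 with IAA, 5 with PEO-IAA and 87 with mock (ratio 65.5, interval 27.8 to 202.9). SAUR24 had 80 counts with IAA, 0 with PEO-IAA and 2 with mock, and was at least 25.5-fold higher with IAA against a floor of 3 counts over the PEO-IAA group (adjusted p = 0.0381). SAUR26 had 54 counts with IAA and 1 with PEO-IAA (ratio 51.7, interval 8.89 to 2079). The calls of SAUR24 and SAUR26 were lost whichever of the 9 libraries was left out. AT4G12410 held 8.01, 7.99 and 9.22 CPM with IAA, 0.0495, 0.589 and 1 CPM with PEO-IAA and 0.871, 1.22 and 1.62 CPM with mock (log2 difference 4.09, SE 0.54, adjusted p = 0.00192). In the other direction AT4G34810 held 4.86, 4.76 and 4.4 CPM with IAA, 17.1, 12.4 and 18.1 CPM with PEO-IAA and 9.25, 6.52 and 9.04 CPM with mock (log2 difference -1.74, SE 0.17, adjusted p = 0.000229), and its neighbour by locus number AT4G34800 had a log2 difference of -1.24 (adjusted p = 0.0033). Reads of neighbouring SAUR genes are hard to tell apart, so these values are uncertain.

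Less known genes of this class included AT3G42800, which held 22.1, 14.4 and 16.8 CPM with IAA, 2.13, 2.4 and 2.37 CPM with PEO-IAA and 10.2, 6.72 and 8.55 CPM with mock (log2 difference 2.92, SE 0.17, adjusted p = 3.52e-06), with the 3 groups apart. RTFL17 and RTFL10, of the ROTUNDIFOLIA-like family of small peptides that limit cell proliferation in leaves, were higher by 2.06 and 1.87 (adjusted p = 0.00651 and 0.00287), the 2 genes called of 13 tested. UCN, an AGC kinase gene known from ovule integument growth, held 18.3, 22.8 and 26.3 CPM with IAA, 7.17, 11.1 and 9.33 CPM with PEO-IAA and 14.7, 14.2 and 14.6 CPM with mock (log2 difference 1.29, SE 0.18, adjusted p = 0.00285), and its homologue UCNL was higher by 1.699 (adjusted p = 0.00152). NPY2, a relative of the NPY1 protein that acts with PID in organogenesis, was higher by 1.06 (adjusted p = 0.0139). HAM2, a GRAS factor of meristem maintenance, held 85.9, 83.8 and 61.1 CPM with IAA, 43.4, 39.4 and 33.4 CPM with PEO-IAA and 59.6, 57.4 and 49.3 CPM with mock (log2 difference 0.98, SE 0.07, adjusted p = 2.08e-05). LOG3, which codes for an enzyme that releases active cytokinin, was higher by 1.21 (adjusted p = 0.0267). The calcium sensor genes CBL1 and SOS3 were also here, at 0.98 and 0.68 (adjusted p = 0.00547 and 0.0113).

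**Figure D2:**
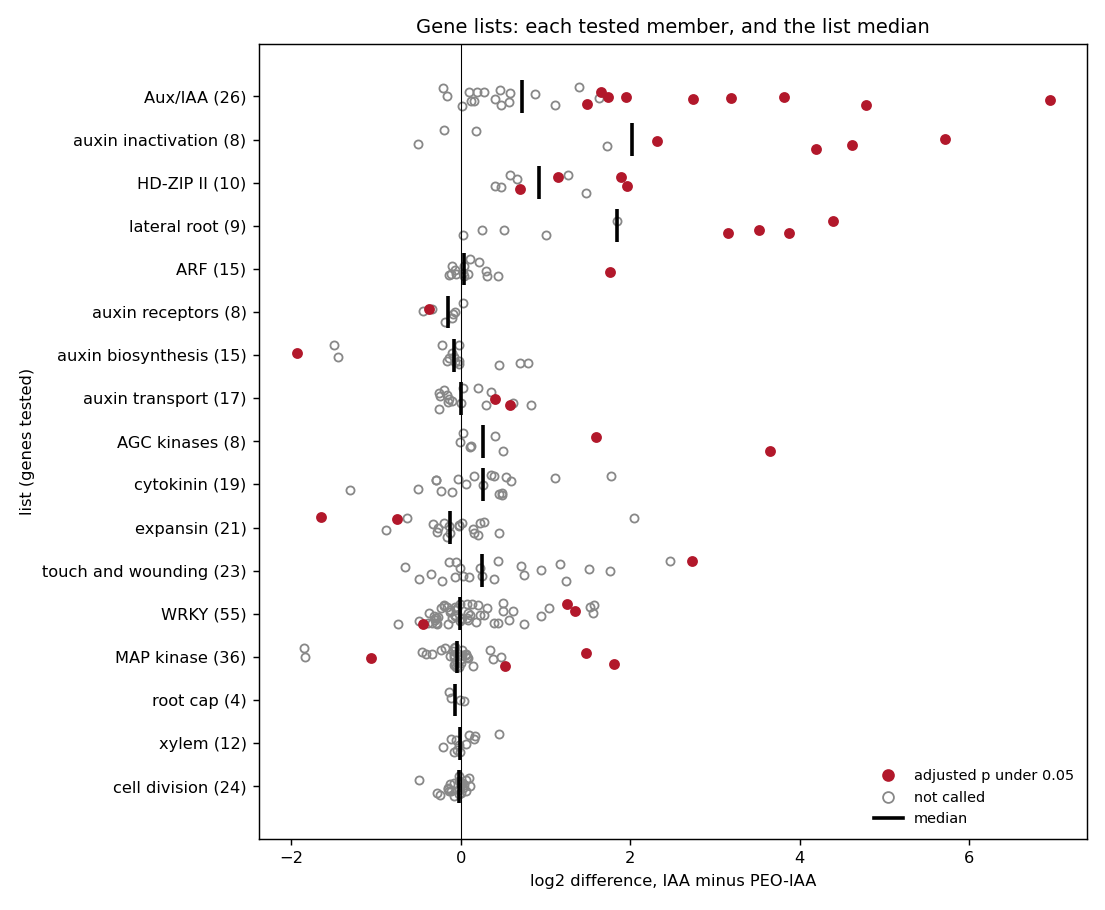
Log2 difference, IAA minus PEO-IAA (horizontal axis), of each tested member of 17 gene lists (vertical axis, number tested in brackets). Filled points passed the test, open points did not, and bars are list medians, which lie at 0.73 for Aux/IAA genes and 2.02 for auxin inactivation and between -0.06 and -0.01 for root cap, xylem and cell division markers.

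For the 93 higher genes with mock near PEO-IAA the median log2 difference was 0.790, 28 of them differed by at least 2-fold, 64 were also called between IAA and mock, and 0 were called between PEO-IAA and mock. GH3.3, TCH3 and MPK3 led the class by p. The class held 13 of 703 protein kinase genes tested and 12 of 281 calcium genes, 3 of which (CPK28, CPK32 and CPK4) count in both. Over all classes and both directions, 3.56% of the kinase genes and 6.76% of the calcium genes were called, beside 1.72% of all genes tested. These families were grouped from the annotation after the values were seen. In the same libraries the touch, wounding and jasmonate genes had a median of 0.26, 15 of 23 above 0, 1 called (TCH3), with the summed levels given above. Their part in this class was not tested. Without IAA replicate 3 the class held 29 genes and without PEO-IAA replicate 1 it held 52.

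GH3.3 (AT2G23170), the 1 GH3 gene of this class, held 6.22, 67.5 and 20.4 CPM with IAA, 0.247, 2.94 and 0.685 CPM with PEO-IAA and 0.533, 4.59 and 1.57 CPM with mock. Levels spread widely among replicates, with replicate 1 lowest and replicate 2 highest in every group, yet all IAA libraries were above all others (log2 difference 4.62, SE 0.35, adjusted p = 2.55e-05). The differences were 3.75 (SE 0.32, adjusted p = 0.000443) for IAA minus mock and -0.88 (SE 0.38, adjusted p = 0.991) for PEO-IAA minus mock. PEO-IAA stood below mock in every replicate number, so the class of GH3.3 rests on where the border was set.

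Of 281 tested genes annotated for calcium binding or transport 18 were higher with IAA and 1 lower, and 12 of the 18 had mock near PEO-IAA. TCH3 (AT2G41100), a touch-induced calmodulin-like gene, held 293, 266 and 297 CPM with IAA, 38.9, 64.8 and 34.5 CPM with PEO-IAA and 39.4, 88.3 and 37.5 CPM with mock. PEO-IAA and mock overlapped, and every IAA library was far above both (log2 difference 2.73, SE 0.25, adjusted p = 0.000189), and the differences were 2.51 (SE 0.25, adjusted p = 0.00105) for IAA minus mock and -0.22 (SE 0.25, adjusted p = 0.991) for PEO-IAA minus mock. CBP60G, which codes for a calmodulin-binding activator of salicylic acid synthesis, held 10.6, 9.83 and 9.91 CPM with IAA, 1.63, 0.951 and 0.316 CPM with PEO-IAA and 0.775, 1.78 and 0.758 CPM with mock (log2 difference 3.47, SE 0.49, adjusted p = 0.0033). Calcium-dependent kinase genes were higher as well: CPK28 held 71.8, 74.7 and 88.5 CPM with IAA, 37.6, 42.6 and 37.3 CPM with PEO-IAA and 34.1, 50.0 and 39.2 CPM with mock (log2 difference 1.001, SE 0.11, adjusted p = 0.000619), CPK32 was higher by 0.79 (adjusted p = 0.0072) and CPK4 by 0.62 (adjusted p = 0.0244). The channel gene CNGC19 held 14.2, 10.9 and 10.8 CPM with IAA, 1.88, 4.39 and 2.79 CPM with PEO-IAA and 1.65, 4.33 and 3.03 CPM with mock (log2 difference 2.08, SE 0.31, adjusted p = 0.00523), CNGC1 was higher by 0.94 (adjusted p = 0.0105), and the calcium pump gene ACA1 by 0.66 (adjusted p = 0.0376). CNGC15, a nuclear envelope channel gene, was the 1 lower gene, at a log2 difference of -0.58 (adjusted p = 0.0411).

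MPK3 (AT3G45640), a MAP kinase of immune and stress signalling, held 123, 92.6 and 116 CPM with IAA, 30.2, 36.5 and 28.4 CPM with PEO-IAA and 25.2, 36.5 and 27.7 CPM with mock, with PEO-IAA and mock overlapping and IAA apart (log2 difference 1.81, SE 0.17, adjusted p = 0.000189). Of 36 MAP kinase cascade genes tested 3 were higher and 1 lower (median -0.04): MPK17 by 0.53 (adjusted p = 0.0028), MAPKKK14 by 1.48 (adjusted p = 0.00695), and MAPKKK16 at a log2 difference of -1.06 (adjusted p = 0.0301). NUDT7 (AT4G12720), a Nudix hydrolase gene that restrains EDS1-dependent defence, held 226, 197 and 209 CPM with IAA, 49.7, 52.9 and 40.4 CPM with PEO-IAA and 51.7, 61.2 and 57.7 CPM with mock (log2 difference 2.15, SE 0.22, adjusted p = 0.000441). SYP121, a syntaxin of the plasma membrane known from penetration resistance, held 128, 122 and 149.7 CPM with IAA, 78.2, 75.3 and 81.7 CPM with PEO-IAA and 69.8, 82.3 and 84.1 CPM with mock (log2 difference 0.76, SE 0.09, adjusted p = 0.000741), and the sugar transporter gene ERD6 held 212, 226 and 224 CPM with IAA, 97.8, 142 and 113 CPM with PEO-IAA and 107, 134 and 107 CPM with mock (log2 difference 0.92, SE 0.11, adjusted p = 0.000872). Of 67 genes tested for TIR-NBS-LRR immune receptors 4 were higher and 0 lower, 3 of them in this class. Of 55 WRKY genes 2 were higher and 1 lower (median -0.01): WRKY51 in this class by 1.26 (adjusted p = 0.0384), with overlapping libraries, WRKY70 as described below, and WRKY35 at a log2 difference of -0.44 (adjusted p = 0.0256). The WRKY51 call was lost whichever of the 9 libraries was left out, and the WRKY35 call under 6 of the 9 omissions. Heat stress factor genes HSFB2A and HSFA8 were higher by 1.24 (adjusted p = 0.00853) and 0.79 (adjusted p = 0.0469), the 2 called of 33 heat shock genes. The HSFB2A and MAPKKK14 calls were lost without IAA replicate 3 or PEO-IAA replicate 2 or 3, and that of HSFA8 under 6 of the 9 omissions. Of 28 GRAS genes tested 4 were higher and 1 lower, 3 of the higher ones in this class. PUB23, a U-box ubiquitin ligase that dampens immune responses, held 140.0, 106 and 132 CPM with IAA, 80.3, 52.9 and 33.3 CPM with PEO-IAA and 66.5, 72.4 and 59 CPM with mock (log2 difference 1.24, SE 0.27, adjusted p = 0.0435). MYB51, a regulator of indole glucosinolate synthesis, held 20.05, 21.7 and 21.9 CPM with IAA, 9.85, 15.8 and 9.6 CPM with PEO-IAA and 9.54, 17.4 and 10.5 CPM with mock (log2 difference 0.90, SE 0.19, adjusted p = 0.037), and SR1, a calmodulin-binding transcription factor that represses immunity, was higher by 0.68 (adjusted p = 0.00869). BON1, a copine that restrains cell death, held 53.3, 57.2 and 58.8 CPM with IAA, 29.9, 40.5 and 37.4 CPM with PEO-IAA and 23.8, 38.6 and 39.9 CPM with mock (log2 difference 0.67, SE 0.13, adjusted p = 0.0186). The immune receptor helper ADR1-L2 was higher by 0.88 (adjusted p = 0.00437) and XLG2, an extra-large G protein of immune signalling, by 0.59 (adjusted p = 0.0144). MAKR6, a relative of MAKR4, held 3.84, 7.49 and 6.49 CPM with IAA, 0.643, 0.679 and 1.85 CPM with PEO-IAA and 1.74, 1.53 and 1.245 CPM with mock (log2 difference 2.53, SE 0.40, adjusted p = 0.00683), and AT3G53400, next to MPK3 in the order of p, held 34.2, 30.8 and 29 CPM with IAA, 19.5, 18.3 and 14.1 CPM with PEO-IAA and 18.6, 19 and 15.3 CPM with mock (log2 difference 0.86, SE 0.08, adjusted p = 0.000189). In PUB23, MYB51, BON1, MAKR6 and AT3G53400 all IAA libraries were above all PEO-IAA and mock libraries, which overlapped.

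The promoter windows of GH3.3 and MPK3, the GH3 gene and the kinase gene with the smallest p in this class, are shown in the same way for comparison with those above.
GH3.3 (chr2:9866563-9866812, minus strand): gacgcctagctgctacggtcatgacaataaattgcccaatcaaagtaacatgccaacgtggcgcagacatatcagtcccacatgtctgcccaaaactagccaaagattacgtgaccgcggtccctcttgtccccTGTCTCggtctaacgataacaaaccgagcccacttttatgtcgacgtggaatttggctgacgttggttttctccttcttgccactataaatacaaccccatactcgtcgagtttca
MPK3 (chr3:16756321-16756570, plus strand): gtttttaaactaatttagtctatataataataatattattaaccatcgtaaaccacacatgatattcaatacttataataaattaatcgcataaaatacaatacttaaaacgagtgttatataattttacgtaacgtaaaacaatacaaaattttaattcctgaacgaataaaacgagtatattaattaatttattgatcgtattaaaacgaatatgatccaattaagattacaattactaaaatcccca
The GH3.3 window holds TGTCTC once, 116 bases before the start, and the MPK3 window holds none of the letters searched. TTGACC or TTGACT stood in 40.9% of the windows of this class, 26.6% of the windows of the class with mock between and 28.6% of all windows. This was not tested either.

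In 8 higher genes mock lay beyond PEO-IAA, that is, below it and past the class border. Mock was also below PEO-IAA, within the border, in 35 of the 93 higher genes with mock near PEO-IAA. All 8 were called between IAA and mock and 0 between PEO-IAA and mock. That all 8 passed against mock follows in part from the class, as mock there lay further from IAA than PEO-IAA did. Among the 8 were 4 genes known from salicylic acid signalling. That grouping was made after the values were seen. No list of such genes was counted, so no share called can be set beside the 4. WRKY70 (AT3G56400), a transcription factor at the balance of salicylic and jasmonic acid, held 39.8, 17.4 and 18.3 CPM with IAA, 13.9, 8.97 and 6.12 CPM with PEO-IAA and 9.15, 5.4 and 4.98 CPM with mock. Replicate 1 was highest in each group, and mock stood below PEO-IAA in every replicate number (log2 difference 1.35, SE 0.15, adjusted p = 0.000619; mock position -0.41, SE 0.14). PAD4, which acts with EDS1, held 21.7, 21.8 and 16.4 CPM with IAA, 12.1, 12.4 and 8.28 CPM with PEO-IAA and 8.62, 10.2 and 8.01 CPM with mock (log2 difference 0.88, SE 0.14, adjusted p = 0.00651). NPR1, the salicylic acid receptor and co-activator, was higher by 0.40 (adjusted p = 0.0448) and NPR3, a related receptor, by 0.61 (adjusted p = 0.0409). Of the 8 calls 1, that of WRKY70, was kept whichever of the 9 libraries was left out, and that of PAD4 was lost without IAA replicate 1 or PEO-IAA replicate 3. Without the replicate block 0 genes were left in this class. The other members were RGLG2, AT5G39670, AT1G53620 and AT1G69840.

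**Figure D3:**
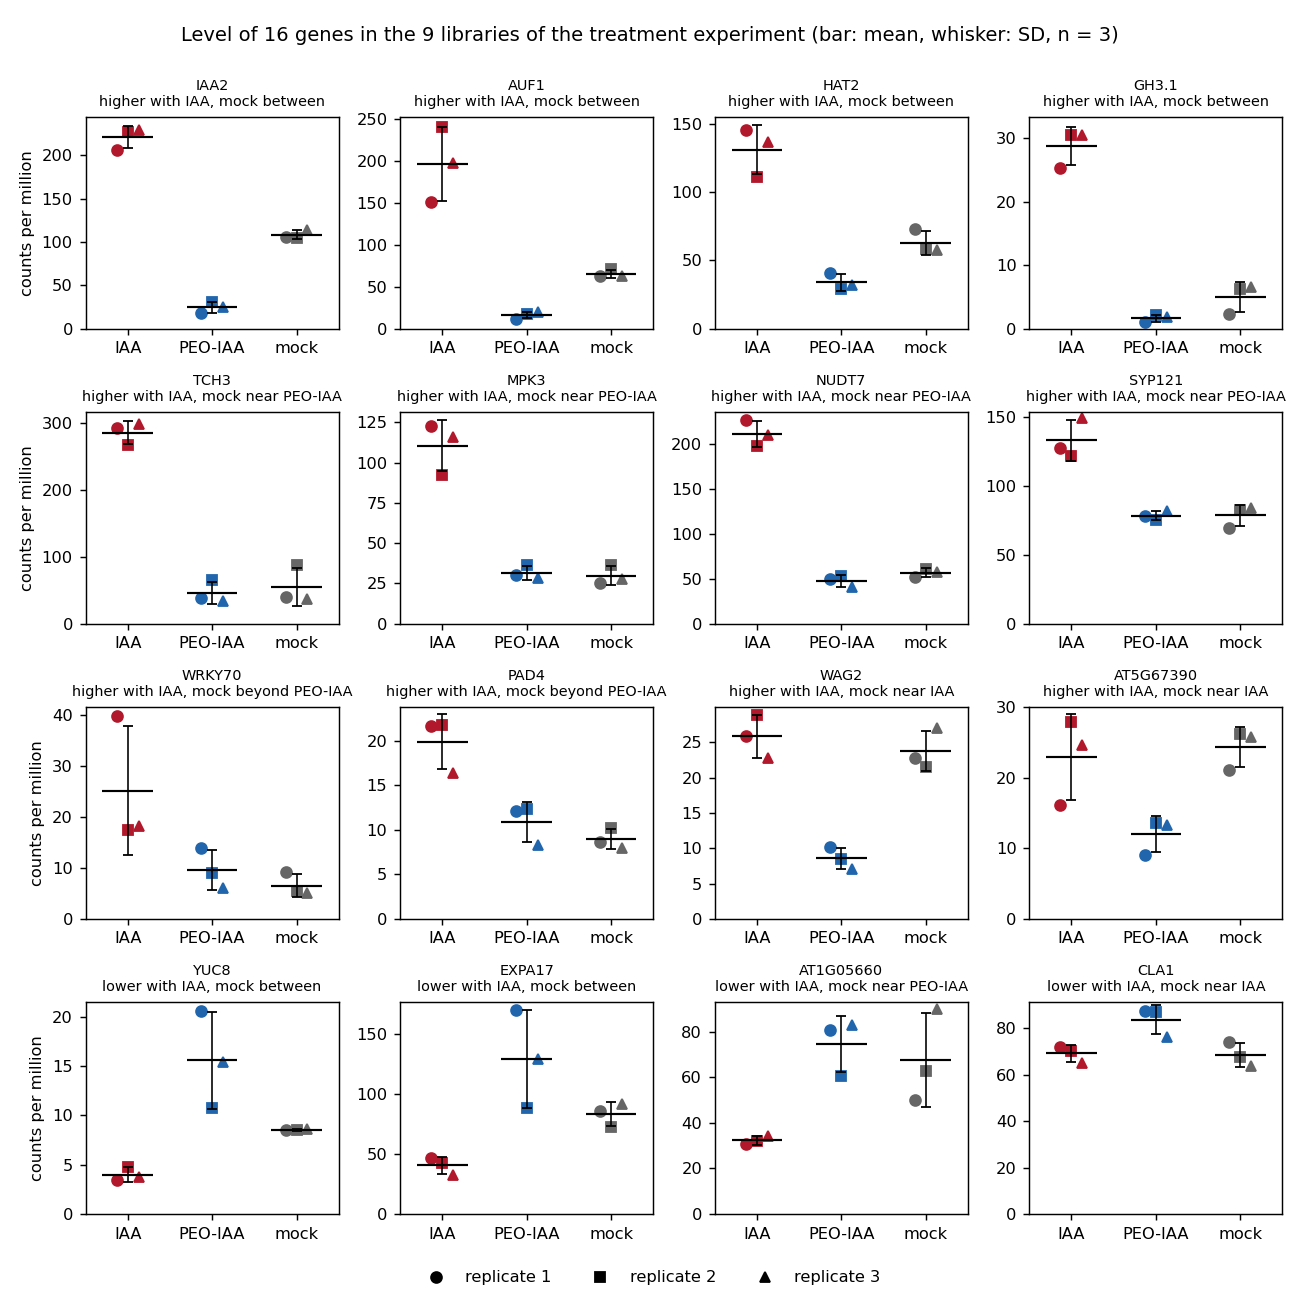
Level in CPM (vertical axes, from 0) of 16 genes in the 9 libraries, by treatment (horizontal axes). Symbols are replicates, bars are means and whiskers SD (n = 3): mock sits between the treatments in the top row, with PEO-IAA in the second row, and with IAA for WAG2, AT5G67390 and CLA1.

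In 9 higher genes mock lay near IAA, so these differed chiefly by a low level with PEO-IAA. The libraries of mock and PEO-IAA did not overlap for any of the 9, those of mock and IAA overlapped for all 9, and 2 were called between PEO-IAA and mock. AT5G67390 held 16.1, 28 and 24.7 CPM with IAA, 9.1, 13.6 and 13.3 CPM with PEO-IAA and 21.1, 26.2 and 25.8 CPM with mock (log2 difference 0.92, SE 0.13, adjusted p = 0.0033), and the differences were -0.12 (SE 0.13, adjusted p = 0.977) for IAA minus mock and -1.04 (SE 0.13, adjusted p = 0.0123) for PEO-IAA minus mock. WAG2, an AGC kinase gene related to PID, held 25.9, 28.9 and 22.7 CPM with IAA, 10.1, 8.47 and 7.06 CPM with PEO-IAA and 22.8, 21.5 and 27 CPM with mock (log2 difference 1.597, SE 0.36, adjusted p = 0.049), and its call was lost whichever of the 9 libraries was left out. AT3G51410 held 4.27, 7.81 and 3.29 CPM with IAA, 0.297, 0.136 and 0.158 CPM with PEO-IAA and 3.44, 1.94 and 2.06 CPM with mock (log2 difference 4.66, SE 0.59, adjusted p = 0.000691), with mock at position 0.78, SE 0.08. It belongs to a group annotated only as DUF241, of which 6 of 11 tested genes were higher with IAA and 0 lower. Of these AT1G76220 and AT2G17080 also had mock near IAA, and AT4G35210, AT4G35200 and AT2G17680 had it between. AT4G35200 held 11.5, 12.1 and 10.1 CPM with IAA, 1.24, 2.08 and 2.32 CPM with PEO-IAA and 9.78, 5.6 and 6.06 CPM with mock, at a mock position of 0.74, SE 0.13, just inside the border. CLE25, a peptide hormone gene, was higher by 0.71 (adjusted p = 0.0445), and AT1G72430, a SAUR-like gene, by 0.72 (adjusted p = 0.0397). The remaining members were AT5G38790 (1.37, adjusted p = 0.00875) and AT2G25964 (0.63, adjusted p = 0.012). For 0 of the 9 did the interval of 1 SE stay inside the class.

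The 64 lower genes with mock between differed by a median of -0.783, and 22 of them by at least 2-fold. Against mock 6 were called with IAA and 0 with PEO-IAA. YUC8 (AT4G28720), a flavin monooxygenase gene of IAA synthesis, was the 1 gene called of 15 biosynthesis genes, with 3.45, 4.8 and 3.71 CPM with IAA, 20.6, 10.7 and 15.3 CPM with PEO-IAA and 8.47, 8.46 and 8.61 CPM with mock. All 3 mock libraries lay between the treatments (log2 difference -1.93, SE 0.29, adjusted p = 0.00437). EXPA17, an expansin gene of cell wall loosening, held 46.3, 42.3 and 32.4 CPM with IAA, 169, 88.4 and 129 CPM with PEO-IAA and 85.4, 72.5 and 91.8 CPM with mock (log2 difference -1.64, SE 0.30, adjusted p = 0.0175). Of 50 pectin lyase-like genes tested 6 were lower and 1 higher. AT1G05650 held 11.3, 8.84 and 6.72 CPM with IAA, 59.2, 22.2 and 39.4 CPM with PEO-IAA and 21, 17.8 and 29.6 CPM with mock (log2 difference -2.095, SE 0.32, adjusted p = 0.00523) and AT2G43890 held 2.82, 2.29 and 0.788 CPM with IAA, 22.5, 7.34 and 15.6 CPM with PEO-IAA and 6.83, 5.45 and 8.28 CPM with mock (log2 difference -2.87, SE 0.54, adjusted p = 0.0179). PEO-IAA replicate 1 was the highest library in both, and in YUC8 and EXPA17 too. The AT2G43890 call was lost without replicate 1 or 3 of IAA or PEO-IAA, as that of EXPA17 was, and the AT1G05650 call without IAA replicate 1 or 3. AT2G43870 and AT3G59850 had log2 differences of -1.23 and -0.98 (adjusted p = 0.0415 and 0.00443). Of 112 genes tested with a C1 domain, of mostly unknown function, 6 were lower and 0 higher, all with mock between, for example AT1G55430 with 3.35, 4.44 and 3.8 CPM with IAA, 10.3, 9.6 and 7.7 CPM with PEO-IAA and 5.81, 6.98 and 5.63 CPM with mock (log2 difference -1.25, SE 0.18, adjusted p = 0.0033). AT1G61840 held 0.583, 3.19 and 0.463 CPM with IAA, 11.9, 7.79 and 7.86 CPM with PEO-IAA and 3.63, 4.64 and 6.17 CPM with mock (log2 difference -2.75, SE 0.62, adjusted p = 0.0407), with IAA replicate 2 above the others of its group, and lost its call under 7 of the 9 omissions. MYB61, a transcription factor gene of mucilage and secondary walls, held 5.24, 4.94 and 5.33 CPM with IAA, 13.4, 11 and 11.9 CPM with PEO-IAA and 7.89, 7.64 and 13.3 CPM with mock (log2 difference -1.23, SE 0.16, adjusted p = 0.0018). MYB63, an activator of lignin synthesis, had a log2 difference of -0.66 (adjusted p = 0.00523), and FLA9, which codes for a fasciclin-like cell wall protein, -0.45 (adjusted p = 0.0442). AT5G24100, a leucine-rich repeat kinase gene, held 18.4, 11.8 and 14.8 CPM with IAA, 34.9, 25.7 and 28.9 CPM with PEO-IAA and 25.4, 19.1 and 29.6 CPM with mock (log2 difference -1.004, SE 0.11, adjusted p = 0.000619), and AT2G47440 held 25.9, 23.2 and 22.5 CPM with IAA, 53.7, 45 and 43 CPM with PEO-IAA and 43, 38.7 and 36.1 CPM with mock (log2 difference -0.98, SE 0.09, adjusted p = 0.000171). The lower gene with the smallest p was AT3G15115, with 3.98, 4.85 and 6.67 CPM with IAA, 15, 13.5 and 18.5 CPM with PEO-IAA and 9.63, 10.0 and 14.6 CPM with mock (log2 difference -1.61, SE 0.11, adjusted p = 1.28e-05). UGT75B2, a glucosyltransferase gene, had a log2 difference of -1.52 (adjusted p = 0.00235).

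The 36 lower genes with mock near PEO-IAA differed by a median of -0.613, 5 of them by at least 2-fold, and 10 were called between IAA and mock. AT1G05660, a pectin lyase-like gene next to AT1G05650, held 30.7, 31.8 and 34.4 CPM with IAA, 80.7, 60.5 and 82.8 CPM with PEO-IAA and 49.9, 62.9 and 90.0 CPM with mock. Mock spanned the PEO-IAA libraries, and IAA was apart from both (log2 difference -1.202, SE 0.14, adjusted p = 0.00105). LNG2, a regulator of longitudinal cell expansion, held 38.9, 45.4 and 32.9 CPM with IAA, 68, 60.0 and 63.6 CPM with PEO-IAA and 59.9, 64.5 and 58.8 CPM with mock (log2 difference -0.72, SE 0.10, adjusted p = 0.00313). EXPB1, another expansin gene, had a log2 difference of -0.75 (adjusted p = 0.0247), so that 2 of 21 expansin genes were lower and 0 higher. AFB1 (AT4G03190), an auxin receptor of the TIR1 family, held 153, 127 and 126 CPM with IAA, 205, 147 and 175 CPM with PEO-IAA and 191, 159 and 169.7 CPM with mock, with IAA and PEO-IAA overlapping (log2 difference -0.37, SE 0.08, adjusted p = 0.0301). It was the 1 gene called of 8 auxin receptor genes, whose median was -0.14, and TIR1 had a log2 difference of -0.18 (adjusted p = 0.642). The AFB1 call was lost under 7 and the EXPB1 call under 6 of the 9 omissions. AT1G01830 held 23.4, 17.9 and 19.5 CPM with IAA, 32.2, 29.99 and 31 CPM with PEO-IAA and 34.3, 26.8 and 33.2 CPM with mock (log2 difference -0.62, SE 0.08, adjusted p = 0.00258), and AT3G21680 had a log2 difference of -0.79 (adjusted p = 0.00293). Enzymes of wall polysaccharides were F8H, of glucuronoxylan synthesis, at -0.42 (adjusted p = 0.0259), and GALS2, of pectic galactan synthesis, at -0.59 (adjusted p = 0.0456). HAM3, from the same GRAS clade as HAM2, went the other way at -0.49 (adjusted p = 0.0464). MIZ1, needed for root hydrotropism, had a log2 difference of -0.49 (adjusted p = 0.0278), and ELF4, a gene of the circadian clock, had -0.32 (adjusted p = 0.0444), with overlapping libraries.

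Several lists held 0 called genes in edgeR and are given with their number at an unadjusted p under 0.05. The share of all genes tested at that threshold was not counted, so these numbers cannot be read as high or low. Cytokinin genes had 4 of 19 (median 0.27), brassinosteroid genes 5 of 16 (0.11) and XTH genes of xyloglucan remodelling 4 of 25 (0.11). Genes of the pectin list had 3 of 11 (-0.08), proton pump and PP2C.D phosphatase genes 2 of 8 (0.00), and ERF and DREB genes 8 of 52 (-0.02). APD7 was the only phosphatase gene in the proton pump list, as other PP2C.D names did not match a locus. The pectin list was matched by symbol and also holds PLL1 to PLL5, POLTERGEIST-LIKE phosphatase genes. Its values are therefore not those of pectin enzymes alone. DESeq2 called 1 ERF or DREB gene and 0 in the other 5 lists.

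In 5 lower genes mock lay near IAA, and 0 of these were called against mock in either comparison. CLA1, a nuclear gene for a plastid enzyme of isoprenoid synthesis, held 71.9, 70.4 and 65.1 CPM with IAA, 87.5, 87 and 76.4 CPM with PEO-IAA and 74, 67.7 and 63.7 CPM with mock (log2 difference -0.27, SE 0.06, adjusted p = 0.0425), and lost its call whichever of the 9 libraries was left out. AT3G06070, AT1G29640 and AT3G46700 had log2 differences of -0.63, -0.69 and -0.65 (adjusted p = 0.0113, 0.0317 and 0.0327), and the fifth was ORP1A. In AT5G58530, a glutaredoxin-like gene with 12.8, 12.2 and 11.9 CPM with IAA, 17.3, 15.3 and 18.3 CPM with PEO-IAA and 19.1, 17.5 and 19.2 CPM with mock (log2 difference -0.46, SE 0.09, adjusted p = 0.015), and in AT5G20670, mock lay beyond PEO-IAA, and both were called between IAA and mock.

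The contrasts that called and sorted the genes use the IAA, PEO-IAA and mock levels, and not those of the AXR3-1 lines, whose libraries entered the same fit and so its filter, dispersions and residual degrees of freedom. With the 9 libraries of the treatment experiment alone, 538 genes were higher and 232 lower. AXR3 itself (AT1G04250) held 734, 939 and 1185 CPM in XVE>>AXR3-1, against 175, 146.4 and 145.6 CPM in its Col-0, and 181, 298 and 861 CPM in HS::AXR3-1, against 93.5, 149 and 143 CPM in heat-shocked Col-0. Native and transgene reads are counted together there, and HS::AXR3-1 replicate 3 was far above the other libraries of that line. With IAA it held 151, 155 and 168 CPM, with PEO-IAA 133, 155 and 152 CPM and with mock 124, 137 and 155 CPM, and it was not called between IAA and PEO-IAA (log2 difference 0.11, SE 0.25, adjusted p = 0.989).

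In XVE>>AXR3-1 against its Col-0, 7.52% of all genes tested were called, 4.18% higher and 3.34% lower (edgeR, adjusted p under 0.05), and the median of all genes was -0.015. Of the 124 higher genes with mock between, 3 were higher and 60 lower in the line (2.42% and 48.4%, median -0.706). Of the 9 with mock near IAA, 0 were higher and 7 lower (77.8%, median -1.654). Of the 93 with mock near PEO-IAA, 33 were higher and 3 lower (35.5% and 3.23%, median 0.307). The called genes of these classes thus went mostly in opposite directions in this line, and the difference between classes was not tested. Of the 64 lower genes with mock between, 35 were higher and 1 lower (54.7% and 1.56%, median 0.581), and of the 36 with mock near PEO-IAA, 11 were higher and 4 lower (30.6% and 11.1%, median 0.327). Without 1 library of this line or its Col-0, the 33 became 11 to 20 under each of the 6 omissions, and the 60 became 31 to 36 without replicate 1 or 2 of either. The 35 became 21 or 22 without replicate 2 of its Col-0 or of the line.

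Among the genes with mock between, IAA2 held 16.5, 13.3 and 13 CPM in the line, against 55.2, 54.2 and 42.7 CPM in its Col-0, a difference of -1.83 (SE 0.16, adjusted p = 0.000115), and ACS11 differed by -3.25 (SE 0.40, adjusted p = 0.000206). WAG2, with mock near IAA, held 1.6, 1.59 and 1.29 CPM in the line, against 7.88, 14.8 and 11.1 CPM in its Col-0, a difference of -2.89 (SE 0.45, adjusted p = 0.00155). The lower genes YUC8 and EXPA17 rose in the line: YUC8 held 63.1, 68.7 and 46 CPM in the line, against 13.7, 13.2 and 10.7 CPM in its Col-0, a difference of 2.23 (SE 0.25, adjusted p = 0.000312), and EXPA17 differed by 2.11 (SE 0.30, adjusted p = 0.0012). The line and its Col-0 did not overlap in any of these. Of the genes with mock near PEO-IAA, ERD6 held 204, 125 and 198 CPM in the line, against 109.8, 77.7 and 111 CPM in its Col-0, a difference of 0.81 (SE 0.11, adjusted p = 0.000723), CBP60G differed by 3.12 (SE 0.55, adjusted p = 0.00323) and TCH3 by 1.401 (SE 0.26, adjusted p = 0.00543). GH3.3 went the other way, as 1 of the 3 lower genes of that class, with 0, 0.0996 and 0 CPM in the line, against 0.991, 1.37 and 1.56 CPM in its Col-0 (adjusted p = 0.000781). MPK3 did not pass there, at 0.36 (SE 0.18, adjusted p = 0.344). Of the class with mock between, GATA23 did not pass at -0.70 (SE 0.57, adjusted p = 0.684), nor PID at -0.54 (SE 0.48, adjusted p = 0.728).

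**Figure D4:**
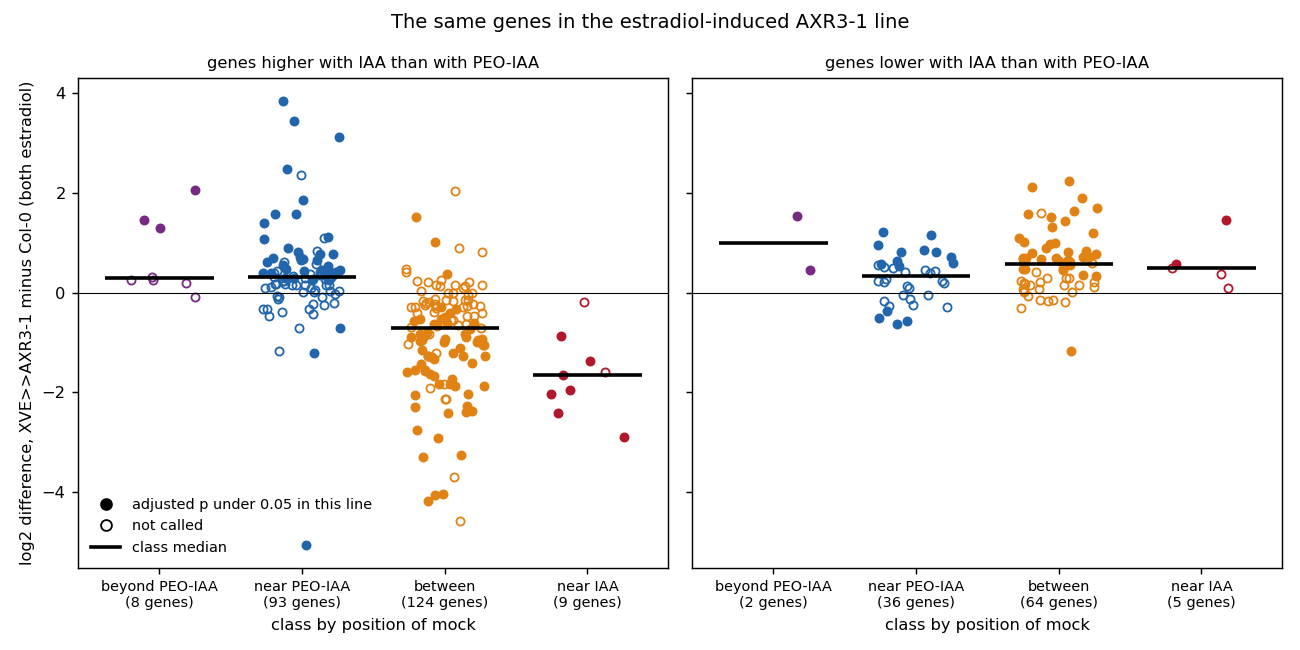
Log2 difference, XVE>>AXR3-1 minus estradiol-treated Col-0 (vertical axis), of the genes higher (left) and lower (right) with IAA, by class (horizontal axis, number of genes in brackets). Filled points passed the test in the line and bars are class medians, at 0.307 for the 93 higher genes with mock near PEO-IAA and -0.706 for the 124 with mock between.

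In HS::AXR3-1 few genes differed from heat-shocked Col-0 (0.434% of all genes called, 0.318% higher and 0.116% lower). Of the higher genes with mock between, 0 were higher and 4 of 124 lower (3.23%, median -0.244), of those with mock near PEO-IAA 0 of 93 were called either way, of those with mock near IAA 1 of 9 was lower, and of those with mock beyond PEO-IAA 2 of 8 were higher. Of the lower genes with mock between, 3 of 64 were higher (4.69%) and 0 lower. Without HS::AXR3-1 replicate 1 the 4 became 18, without replicate 2 they became 1, and without replicate 3, the library highest in AXR3, they became 3.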

How the data were processed

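RNA from 21 libraries had been quantified with Salmon 1.3.0 against TAIR10, per the submitters' processing notes, with 1 file per library. Strand and library settings are not stated there. Per the file headers, each deposited file gave estimated counts per transcript (the expected counts used here) and TPM, which was used only to check the files. Totals were 17.45 to 23.88 M estimated counts per library, and rounding to whole numbers shifted a total by at most 2.3e-05%.

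Estimated counts of 48268 transcripts were summed to 27586 loci and rounded, and 19809 genes passed edgeR's filter on low counts by group. One quasi-likelihood fit (edgeR 4.0.16, R 4.3.3, limma 3.58.1) of all 21 libraries had a coefficient for each of 7 groups, the replicate number as a block within each of 3 experiments (8 residual degrees of freedom) and TMM scaling. P-values were adjusted over all genes tested by Benjamini-Hochberg. DESeq2 1.42.0 was an alternative. Same-numbered libraries of IAA, PEO-IAA and mock deviated together (correlations 0.523 to 0.784 in all 9 pairs, against -0.647 to 0.271 for other pairs). The labels call the samples biological replicates. No further source of the pairing is given.

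Members and gene lists were chosen with earlier results of these data known. Named genes were AXR3, the 10 largest rises and 10 largest falls with groups apart and a mean of at least 5 CPM, up to 4 further genes by p in each class, and called members of the lists. The lists held 736 distinct loci, and 19 further names did not match a locus. Other genes, and the families taken from product names, were chosen after their values were seen. Gene names and promoters are from RefSeq TAIR10.1, matched by locus ID, and 99.6% of the transcripts found there by name had the length given in the files. The promoters of all 6 genes shown were found. Near-identical genes can share reads, and overlapping or antisense genes cannot be told apart, so such values are uncertain. Intervals and floors cover counting error only, at the 95% level. A gene that met the naming rule is not reported here.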

Additional observations from a re-analysis of the deposited data

How the results depend on the processing

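All 341 genes kept their sign under every alternative run, and the 125 genes called without the replicate block were all among them. The counts moved. Genes higher and lower with IAA numbered 234 and 107 with the block and 99 and 26 without the block. Without the replicate block the classes of the higher genes, by mock beyond PEO-IAA, near PEO-IAA, between and near IAA, held 0, 32, 63 and 4 genes, and those of the lower genes 0, 4, 22 and 0. With 9 libraries alone the counts were 538 and 232 (classes 24, 227, 259 and 28, and 5, 63, 131 and 31, with 2 lower genes beyond IAA), and with the 6 treated libraries 474 and 217. DESeq2 called 340 and 170, with 19 higher genes beyond and 144 near PEO-IAA, and 104 lower genes between and 17 near IAA. Equally spaced class borders gave 1, 124, 89 and 20 higher genes, so that near PEO-IAA became the larger class, and 0, 63, 35 and 9 lower genes. Positions on mean CPM gave 1, 143, 85 and 5 higher genes, and 8 lower genes near IAA. Median-of-ratios scaling, no filter and robust fitting called 228 to 242 higher and 95 to 104 lower genes. The causes of these changes in the counts were not tested.

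Leaving out 1 library gave 79 to 199 higher and 21 to 81 lower genes, with fewest higher genes without PEO-IAA replicate 3. The higher classes ranged over 1 to 15 (beyond PEO-IAA), 20 to 80 (near PEO-IAA), 53 to 108 (between) and 3 to 13 (near IAA), and the lower ones over 0 to 1, 4 to 37, 16 to 57 and 0 to 5. In the AXR3-1 lines, where these omissions and the fit without the replicate block were chosen after seeing the data, XVE>>AXR3-1 had 3 to 4 lower and 11 to 20 higher of the 93 genes, 31 to 53 lower and 0 to 2 higher of the 124, 3 to 4 lower and 7 to 11 higher of the 36, and 0 to 1 lower and 21 to 26 higher of the 64. HS::AXR3-1 had 0 to 1 lower and 0 to 1 higher, 1 to 18 lower and 0 to 0 higher, 0 to 2 lower and 0 to 2 higher, and 0 to 0 lower and 1 to 15 higher of the same classes. Without the replicate block XVE>>AXR3-1 had 1 lower and 15 higher of the 93, 33 lower of the 124, 1 lower and 4 higher of the 36, and 0 lower and 21 higher of the 64, and HS::AXR3-1 had 0 in each. Genes with few counts, such as SAUR24 and IAA5, are limited by depth.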
